A study of Mus musculus with 24 samples.

Results

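Core effectors of the integrated stress response are described here as 10 genes, Atf4, Atf5, Ddit3, Trib3, Chac1, Sesn2, Ddit4, Stc2, Nupr1 and Ppp1r15a, chosen by symbol from the 54532 genes of the deposited count tables. All 10 were found and all 10 passed the filter on low counts in every comparison. The samples were polyA-enriched RNA from C57BL/6J mice fed ad libitum, all of which had received tamoxifen at postnatal day 28 (P28) to induce recombination, and which were labelled either Polr3a mutant or wild type. The Polr3a product is the main catalytic subunit of RNA polymerase III, the enzyme that makes transfer RNAs and 5S ribosomal RNA. Mutants and wild types of P42 cerebrum (2 males and 2 females per genotype), P42 cerebellum (2 males and 2 females in mutants, 3 males and 1 female in wild types) and P75 cerebrum (males only) gave 6 groups of 4 libraries, 14 or 47 days after tamoxifen. The labels name neither the Polr3a allele nor a Cre driver, do not say whether the wild types carried Cre, and do not say that each library came from a separate animal, so p-values measure the spread between libraries. The question was whether these effectors differed between genotypes at the early age in either tissue, and whether every mutant library took part.

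The integrated stress response is a shared answer of cells to several kinds of stress. Kinases that sense amino acid shortage, unfolded protein in the endoplasmic reticulum, double-stranded RNA or lack of heme phosphorylate the translation factor eIF2, which lowers overall protein synthesis while the messenger RNAs of ATF4, ATF5 and CHOP (the protein of Ddit3) are translated more. These transcription factors bind composite C/EBP-ATF response elements and raise genes of amino acid supply, redox control and cell death, together with genes that end the response, and in the brain the pathway is known for its part in white matter and neurodegenerative disease. ATF4 is regulated to a large extent at translation, which RNA-seq does not measure.

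To show where such an element lies near these genes, the RefSeq promoter windows (GRCm38.p6, 250 bases before to 50 after the transcript start) were searched on both strands for the core TGATGNAA. All 10 genes had a window, 11 windows in all because Atf5 has 2, and Trib3, Chac1 and Nupr1 each held 1 match. Among all 27025 symbols with a window, 4.51% held a match. All 3 matches lay on the strand opposite to transcription, so each reads as TTNCATCA in the sequences below, which run 5′ to 3′ on the transcribed gene's strand to 30 bases past the start, with the match in capitals.
Trib3: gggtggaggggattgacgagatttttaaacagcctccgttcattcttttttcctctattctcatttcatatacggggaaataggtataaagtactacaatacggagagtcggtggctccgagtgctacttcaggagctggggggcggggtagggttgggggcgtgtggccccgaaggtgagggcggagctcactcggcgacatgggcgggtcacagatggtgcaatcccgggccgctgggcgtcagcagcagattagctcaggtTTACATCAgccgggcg
Chac1: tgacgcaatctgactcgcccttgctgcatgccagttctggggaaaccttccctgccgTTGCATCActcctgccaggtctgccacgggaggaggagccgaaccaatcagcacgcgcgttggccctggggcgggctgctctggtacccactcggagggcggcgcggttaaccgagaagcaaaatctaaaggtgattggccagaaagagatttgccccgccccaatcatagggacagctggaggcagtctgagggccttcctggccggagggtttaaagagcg
Nupr1: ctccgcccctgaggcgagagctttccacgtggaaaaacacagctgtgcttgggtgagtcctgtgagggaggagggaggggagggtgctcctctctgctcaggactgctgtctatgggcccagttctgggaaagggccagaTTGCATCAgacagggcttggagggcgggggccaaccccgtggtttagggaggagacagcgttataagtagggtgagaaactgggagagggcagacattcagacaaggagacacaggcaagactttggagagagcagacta
These windows are chr2:152344031-152344310 (minus strand), chr2:119350992-119351271 (plus strand) and chr7:126625441-126625720 (minus strand). The Trib3 match begins at base 15 of the transcript, that of Chac1 193 bases before the start and that of Nupr1 110 bases before it. A match is a description of letters and not evidence of binding, and a window without one says nothing about elements elsewhere in the gene.

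The tables place the 10 genes on 6 mm10 chromosomes and give a count and a length for each. The length can be shorter than the span between the coordinates, as for Sesn2 (3475 bases). Of the 10, 4 overlap a neighbour by coordinates, which do not show whether exons overlap. Whether the counting used strand is not given in the sources used here. Where counted sequence overlaps, reads of such neighbours cannot be told apart. Atf5 (chromosome 7, 44812256 to 44816658) overlaps the 5′ ends of Nup62 and Il4i1 on the other strand, and Ddit3 (chromosome 10, 127290774 to 127296288) overlaps Mars and Gm4189 on the other strand. Sesn2 (chromosome 4, 132492032 to 132510501) contains Gm12981, and Ppp1r15a (chromosome 7, 45522916 to 45526268) overlaps the end of Tulp2. A further row named Ddit3 held 0 counts in all libraries and was left out.

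Library totals ran from 13.8 to 23.2 in units of 1000000 counts, with overlapping ranges in mutants and wild types of each comparison. The Polr3a transcript did not separate the genotypes: the P42 cerebrum level was 36.7 ± 2.6 counts per 1000000 (CPM) in mutants and 40.6 ± 3.80 in wild types, with 52.2 ± 5.75 and 51.3 ± 8.82 for cerebellum and 31.6 ± 1.32 and 33.8 ± 3.59 for P75 cerebrum (mean ± SD, n = 4 each; adjusted p = 0.562, 0.984 and 0.542). Several P42 libraries stood apart in tissue markers. In cerebrum, 20 markers of thalamus, hypothalamus and midbrain summed to 837 to 1481 CPM in mutants and 231 to 497 CPM in wild types, with mean log2 deviations from the wild type mean of 0.22, 1.79, 2.55 and 2.39 in mutant replicates 1 to 4; 2 of the markers were at 0 in mutant replicate 1, 3 in wild type replicate 1 and 4 in wild type replicate 2. The 11 cortical and hippocampal excitatory neuron markers deviated by -0.077, -0.34, -2.40 and -1.80 in the same mutants, against -0.17 to 0.31 in wild types. Other marker lists differed there too at an unadjusted p under 0.05, which 12.6% of all genes reached. Of 8 oligodendrocyte markers 6 were higher (median log2 fold change 0.58). Of 15 choroid plexus and ependymal markers 3 were higher and 7 lower (median -0.75). Of 8 microglia markers 3 were lower (median -0.22). In each of these lists 0 were called by edgeR, and 1, 2 and 2 by DESeq2. In cerebellum, 15 choroid plexus and ependymal markers summed to 156 to 1865 CPM in mutants and 2428 to 3691 CPM in wild types, with deviations of -3.05, -0.62, -0.94 and -0.63 in mutant replicates 1 to 4 and no marker at 0. The 12 cerebellar neuron markers deviated by 0.48, -0.80, 0.30 and -1.44 in those mutants and by -0.44 to 0.33 in wild types. Their sum was 2039.7 to 7511 CPM in mutant and 4057 to 6865 CPM in wild type cerebellum, against 289 to 521 CPM in wild type cerebrum. In bulk tissue, fewer cells of a type and less RNA per cell cannot be told apart.

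In cerebrum at P42, the mutant mean was above the wild type mean for 10 of 10 effectors (51.4% of all genes), with a median log2 fold change of 0.88 (range 0.14 to 2.09) where the median of all genes was 0.013. None passed edgeR's quasi-likelihood test over all genes at an adjusted p under 0.05, a threshold that 0.0165% of 18205 genes passed. An unadjusted p under 0.05 was reached by 6 members and by 12.6% of all genes. All 4 mutants lay above all 4 wild types for 3 members, Ddit3, Chac1 and Sesn2, as for 3.53% of all genes. DESeq2 called 2, Chac1 and Sesn2, and 206 genes in all. The same 2 are among the 202 of 18180 genes called in the authors' deposited table (adjusted p = 1.61e-04 and 0.00791). With no filter on low counts edgeR called 7 members (all but Stc2, Nupr1 and Ppp1r15a) and 1312 genes in all, and the standard errors of those 7 were smaller than with the filter.

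Chac1, which encodes a glutathione-degrading enzyme of the response, had 17.8, 17.0, 10.2 and 18.5 CPM in mutant replicates 1 to 4 and 6.34, 4.26, 6.46 and 2.24 CPM in wild types. Every mutant was above every wild type, and the lowest mutant, replicate 3, was 1 of the libraries with high deep region markers. The log2 fold change was 1.77 ± 0.33 (SE, 95% interval 1.02 to 2.52, adjusted p = 0.230). Sesn2, a sestrin that restrains mTORC1 when leucine is scarce and is also induced by p53, had 45.7, 27.9, 23.5 and 24.2 CPM in mutants and 16.9, 13.3, 17.0 and 11.8 CPM in wild types. Mutant replicate 1 was well above the other 3 mutants, which lay close together and clear of the wild types. Its log2 fold change was 1.04 ± 0.20 (95% interval 0.60 to 1.49, adjusted p = 0.230).

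Among the transcription factors, Ddit3, which encodes the pro-apoptotic factor CHOP, had 35.2, 22.2, 18.9 and 24 CPM in mutants and 15.0, 16.4, 16.8 and 8.95 CPM in wild types (0.81 ± 0.24, adjusted p = 0.350). The groups did not overlap, although mutant replicate 3 and wild type replicate 3 were close. Atf4, the central factor of the response, had 139, 154, 114 and 141 CPM in mutants and 125, 77.6, 95.2 and 42.4 CPM in wild types (0.75 ± 0.26, adjusted p = 0.371). Here wild type replicate 1 lay within the mutant range and wild type replicate 4 far below the rest. Atf5, a related factor that is also translated under stress, had 23.4, 17.7, 16.9 and 17.1 CPM in mutants and 18.7, 8.29, 13.4 and 3.28 CPM in wild types (0.94 ± 0.34, adjusted p = 0.371). The mutants were close together save for replicate 1, and wild types spread from below 4 to within the mutant range.

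Of the feedback genes, Trib3, a pseudokinase that binds and inhibits CHOP and ATF4, was scarce in cerebrum, with 1.97, 2.03, 1.25 and 2.99 CPM in mutants and 0.170, 0.399, 1.32 and 0.104 CPM in wild types. The counts behind these values were 26 to 49 in mutants and 2 to 25 in wild types, and wild type replicate 3 reached the mutant range. Its log2 fold change was the highest of the 10 and also the least precise (2.09 ± 0.70, adjusted p = 0.367). Ppp1r15a, which encodes GADD34, the phosphatase subunit that reverses eIF2 phosphorylation, had 10.6 to 17.1 CPM in mutants and 8.95 to 12.1 CPM in wild types (0.27 ± 0.17, adjusted p = 0.509). Mutant replicate 1 alone was clearly above the wild types.

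The remaining effectors overlapped between genotypes in cerebrum at P42. Ddit4, which encodes the mTORC1 inhibitor REDD1 and also responds to hypoxia and glucocorticoids, had 54.2, 69.2, 51.3 and 65.8 CPM in mutants and 72.3, 27.98, 29.3 and 8.74 CPM in wild types (0.96 ± 0.48, adjusted p = 0.428). Its wild type values spread far more than its mutant values, with replicate 1 above every mutant. Stc2, the secreted glycoprotein stanniocalcin, had 9.26, 6.31, 2.84 and 4.87 CPM in mutants and 5.89, 3.15, 4.39 and 4.94 CPM in wild types (0.35 ± 0.35, adjusted p = 0.662), so mutants lay on either side of the wild type range. Nupr1, a small stress-induced chromatin protein, had 2.79 to 5.24 CPM in mutants and 2.91 to 4.88 CPM in wild types (0.14 ± 0.27, 95% interval -0.48 to 0.75, adjusted p = 0.836).

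**Figure D1:**
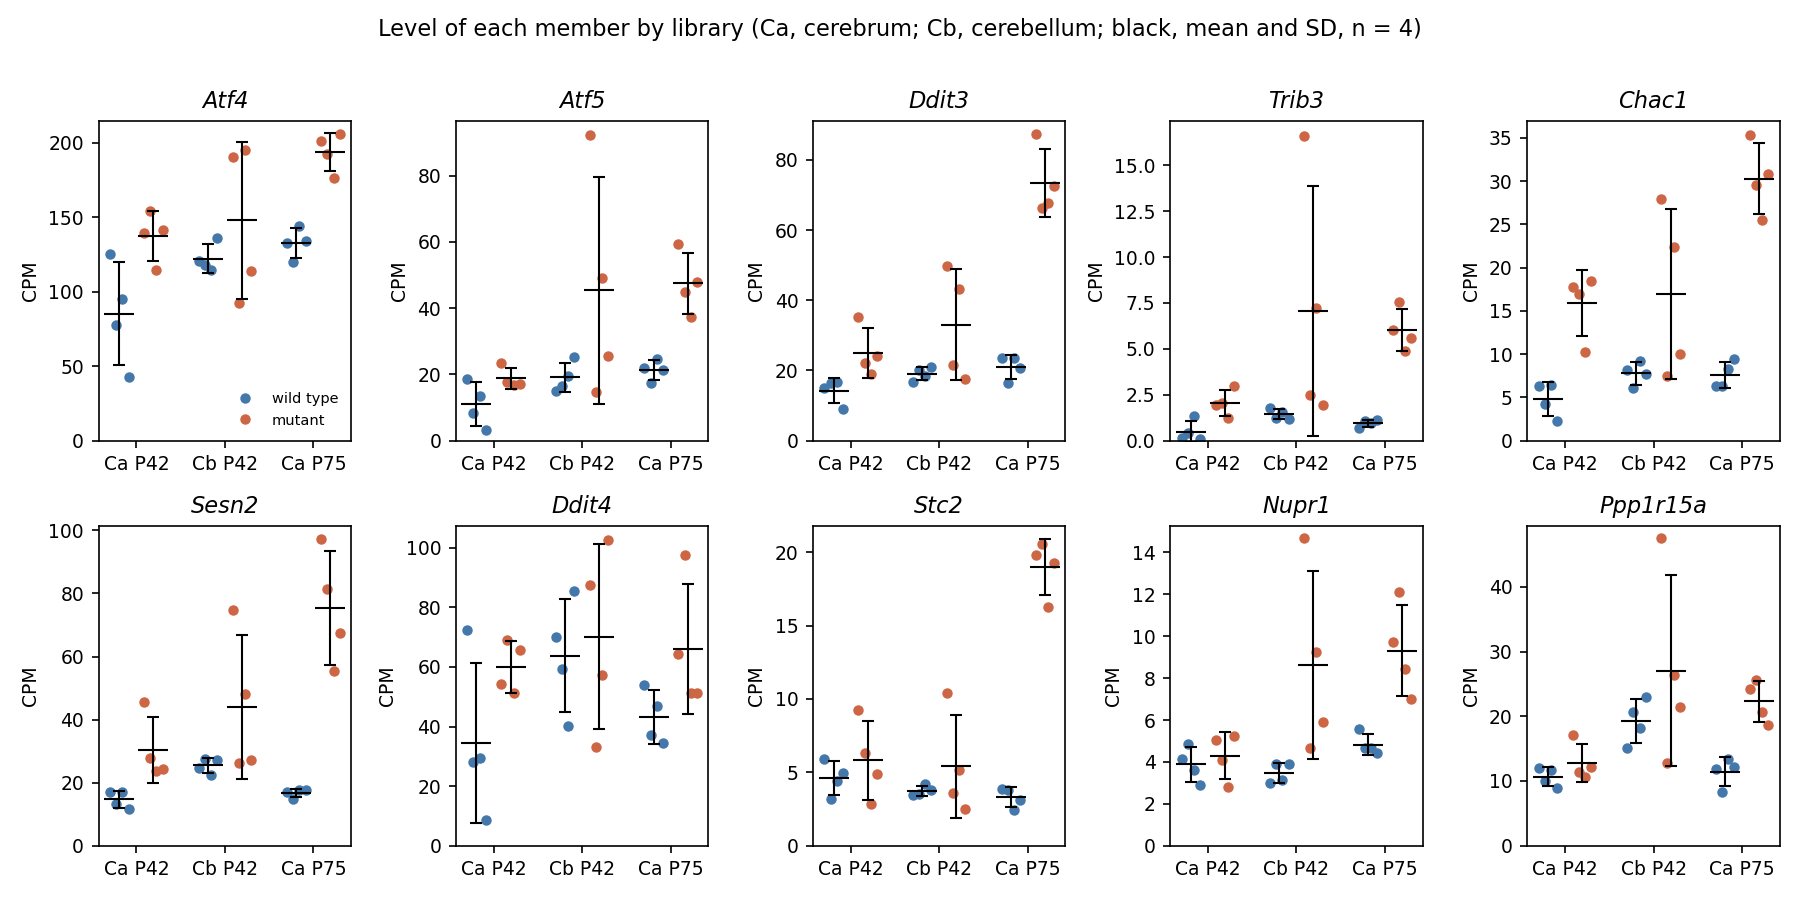
Level of each effector in every library, in CPM scaled within each comparison (vertical axes from 0, 1 panel per gene), for mutants and wild types of P42 cerebrum, P42 cerebellum and P75 cerebrum; points are libraries, and the black mark is the mean with SD (n = 4). At P75 the mutants of 9 genes lie above all wild types, Ddit4 being the exception, while at P42 most panels overlap.

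In cerebellum at P42, the mutant mean was again above the wild type mean for 10 of 10 members, as for 51.9% of all genes (median log2 fold change 0.81, range 0.02 to 2.39, all genes 0.010). None was called by edgeR at an adjusted p under 0.05, against 0.0114% of 17616 genes (0.00568% called higher), while 6 had an unadjusted p under 0.05, against 4.65% of all genes. DESeq2 called 1, Trib3, and 25 genes in all. The authors' deposited table calls 0 members and 17 of 17660 genes. With no filter edgeR called 6 of the members and 153 genes in all (members Atf5, Ddit3, Trib3, Chac1, Sesn2 and Nupr1). Groups were free of overlap for 2 members, Trib3 and Nupr1, as for 1.85% of all genes.

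Trib3 had 16.6, 2.49, 7.22 and 1.94 CPM in mutant replicates 1 to 4 and 1.79, 1.25, 1.58 and 1.18 CPM in wild type cerebellum. All mutants were above all wild types, but replicates 2 and 4 only slightly so, and replicate 1 stood far above the others. The log2 fold change was 2.39 ± 0.63 (95% interval 0.97 to 3.82, adjusted p = 0.863). Nupr1 had 14.7, 4.66, 9.26 and 5.90 CPM in mutants and 3.01, 3.89, 3.16 and 3.88 CPM in wild types (1.32 ± 0.37, adjusted p = 0.936), with the same order of the mutants apart from replicates 2 and 4, which changed places.

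The other members showed the same division of the cerebellar mutants. Atf5 had 92.2, 14.7, 49.1 and 25.4 CPM in mutants and 15.1, 16.4, 19.4 and 25.3 CPM in wild types (1.25 ± 0.50, adjusted p = 0.967). Replicates 1 and 3 were far above all wild types, replicate 4 only just above the highest, and replicate 2 was below all of them. Ddit3 had 49.7, 21.7, 43.3 and 17.6 CPM against 16.8, 20.1, 18.4 and 20.9 CPM (0.80 ± 0.33, adjusted p = 0.967). Chac1 had 27.9, 7.47, 22.4 and 9.99 CPM against 8.16, 6.04, 9.19 and 7.70 CPM (1.14 ± 0.42, adjusted p = 0.967). In both genes replicates 1 and 3 had at least 2 times the wild type mean, and replicates 2 and 4 lay at or near the wild type range. Sesn2 had 74.9, 26.3, 48.1 and 27.03 CPM against 24.5, 27.6, 22.5 and 27.3 CPM (0.82 ± 0.32, adjusted p = 0.967), so replicates 2 and 4 fell inside the wild type range. Atf4 had 190.0, 92.4, 195 and 114 CPM against 121, 118, 114 and 136 CPM (0.23 ± 0.24, adjusted p = 0.984). Mutant replicate 2 was well below every wild type and replicate 4 just below the lowest. Ppp1r15a spanned 12.8 to 47.5 CPM in mutants and 15.1 to 23.0 CPM in wild types (0.49 ± 0.36), and Stc2 2.47 to 10.4 and 3.44 to 4.23 CPM (0.58 ± 0.39). Ddit4 was the exception to this division, with its highest value in replicate 4, at 87.4, 33.2, 57.2 and 103 CPM in mutants and 70.2, 59.3, 40.3 and 85.5 CPM in wild types (0.023 ± 0.32, 95% interval -0.70 to 0.75, adjusted p = 0.9995).

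Whether all mutant libraries took part at P42 was read from each library's mean over the 10 members of its log2 deviation, log2(CPM + 0.5) minus the wild type mean of the same tissue. In cerebrum the 4 mutants had 1.13, 0.87, 0.45 and 0.90, and the wild types 0.40, -0.032, 0.29 and -0.66. All 4 mutants were above all 4 wild types in this mean, but mutant replicate 3 exceeded wild type replicate 1 only narrowly. Mutant replicates 1 to 4 had 9, 6, 3 and 7 members above all wild types, where 18.9, 17.4, 25.7 and 26% of all genes of those libraries were so placed. Replicate 3 also had 2 members, Stc2 and Nupr1, below all wild types, as for 25.3% of all genes in it. The wild type group itself was uneven: replicate 4 was below the other 3 wild types in 9 of 10 members, as for 34.9% of all genes, and without it the median log2 fold change of the members fell from 0.88 to 0.56. Among males only, 2 libraries per genotype, the median was 0.28.

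In cerebellum the mutants had mean deviations of 1.59, -0.10, 0.97 and 0.21, and the wild types -0.063, -0.035, -0.053 and 0.15. Replicates 1 and 3, a male and a female, were far above all wild types, with 10 and 9 members above every wild type, where 28.6 and 22.4% of all genes were so placed. Replicates 2 and 4, also a male and a female, had 3 and 5 such members (28 and 31.1% of all genes) and 4 and 2 members below every wild type (28.9 and 30.9% of all genes). Replicate 2 was lower in this mean than any wild type and replicate 4 just above the highest. So the higher cerebellar means came mainly from replicates 1 and 3, and without replicate 1 the median log2 fold change of the members was 0.21 and those of Atf4, Ddit4, Stc2 and Ppp1r15a were below 0.

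**Figure D2:**
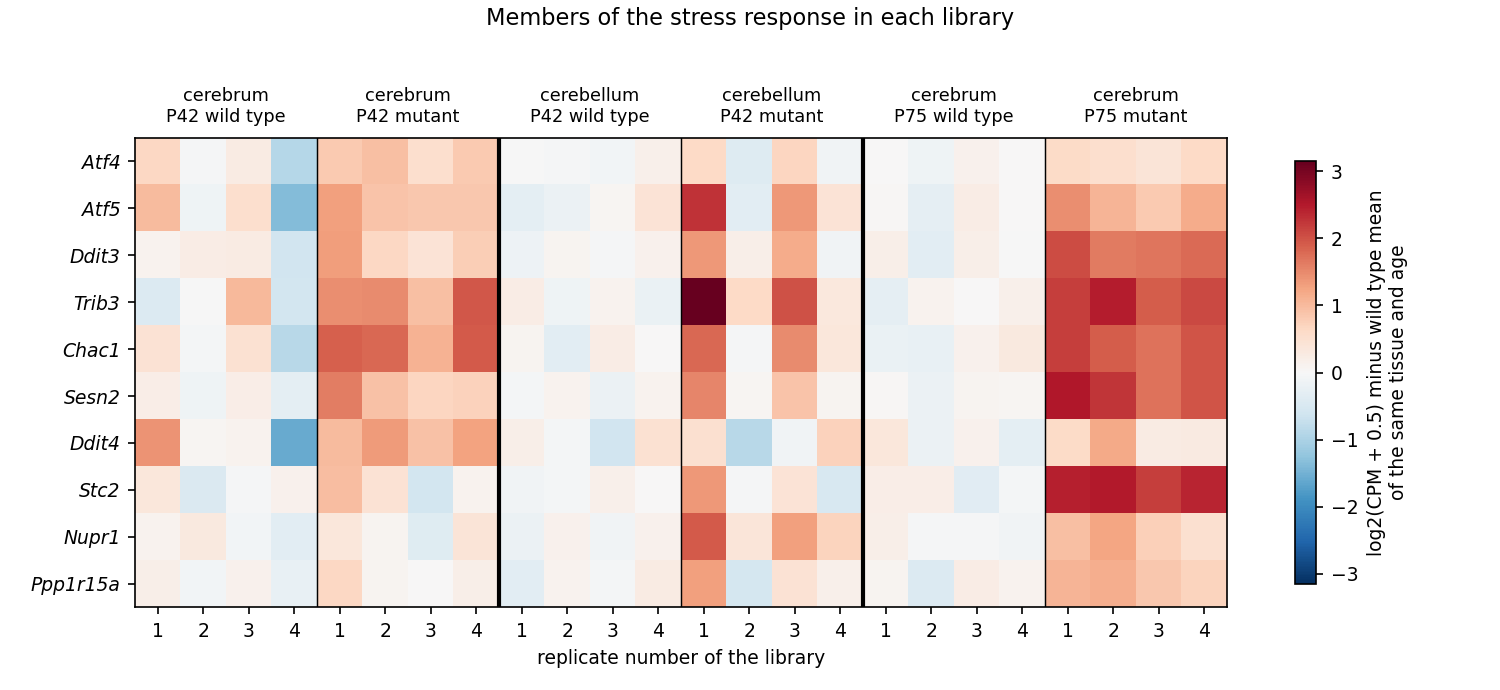
Deviation of each effector (rows) in each of the 24 libraries (columns, by group and replicate number), as log2(CPM + 0.5) minus the wild type mean of the same tissue and age. The 4 P75 mutants are above the wild type mean in all rows, with Atf4 and Ddit4 lowest in the mean, the P42 cerebrum mutants are higher in most rows, and of the P42 cerebellum mutants replicates 1 and 3 are high while replicates 2 and 4 are near the wild types.

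Tissue markers, mitochondrial transcript and Esr1 differed between the same libraries. Mitochondrial genes gave 2.97, 5.38, 3.09 and 4.90% of all counts in cerebellar mutants 1 to 4, against 3.05 to 4.06% in wild types, so replicates 1 and 3 had lower shares than replicates 2 and 4, which were above all wild types. In cerebrum at P42 the shares were 5.26, 4.13, 4.15 and 3.87% in mutants and 4.42 to 6.07% in wild types, and the groups overlapped. The part of this share in the members' differences was not tested. In cerebellum, the cerebellar neuron markers were above the wild type mean in mutant replicates 1 and 3 (0.48 and 0.30) and below all wild types in replicates 2 and 4 (-0.80 and -1.44), the same division as in the members. With this marker level as a covariate the median log2 fold change was 0.92, and edgeR called 4 members, Ddit3, Trib3, Sesn2 and Nupr1 (adjusted p = 0.024, 0.0223, 0.0327 and 0.0327), with 103 genes called in all; this alternative was chosen after seeing the data. The choroid plexus markers were lowest by far in replicate 1, the library highest in the members, and below all wild types in the other 3. With that level as a covariate the median turned to -0.33, 8 of 10 members had a log2 fold change below 0 and 0 were called. This marker level itself did not overlap between the genotypes. In cerebrum, deep region markers were highest in mutant replicates 3 and 4, the lowest and the second highest of the mutants in the members' mean, and with those libraries left out the median was 1.03. It was 1.31 with the deep region level as a covariate and 1.15 with the excitatory neuron level. The summed deep region markers given above did not overlap between the genotypes either. Where a marker level goes with genotype, such a fit cannot tell tissue makeup from genotype. The part of tissue makeup in these differences was not tested.

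Esr1, the estrogen receptor alpha gene, was chosen after its values had been seen. The level counted for Esr1 was higher in every mutant library than in every wild type of its tissue and age. Among mutants Esr1 followed part of the same order. Its level was 62.5, 61.0, 38.6 and 41.4 CPM in cerebrum P42 mutants 1 to 4, 81.5, 51.7, 75.2 and 50.01 CPM in cerebellum mutants and 95.5, 132, 64.6 and 61.8 CPM in P75 mutants, against 1.53 to 9.68, 1.67 to 2.15 and 5.03 to 6.80 CPM in the wild types. Cerebellum replicates 1 and 3 had more Esr1 than replicates 2 and 4, and cerebrum P42 replicate 3, lowest in the members, had the least. Counts per gene cannot tell reads of the Esr1 gene from reads of a transgene that holds Esr1 sequence. The labels name no Cre driver, and the source of these reads was not tested. What they have to do with the members was not tested either.

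**Figure D3:**
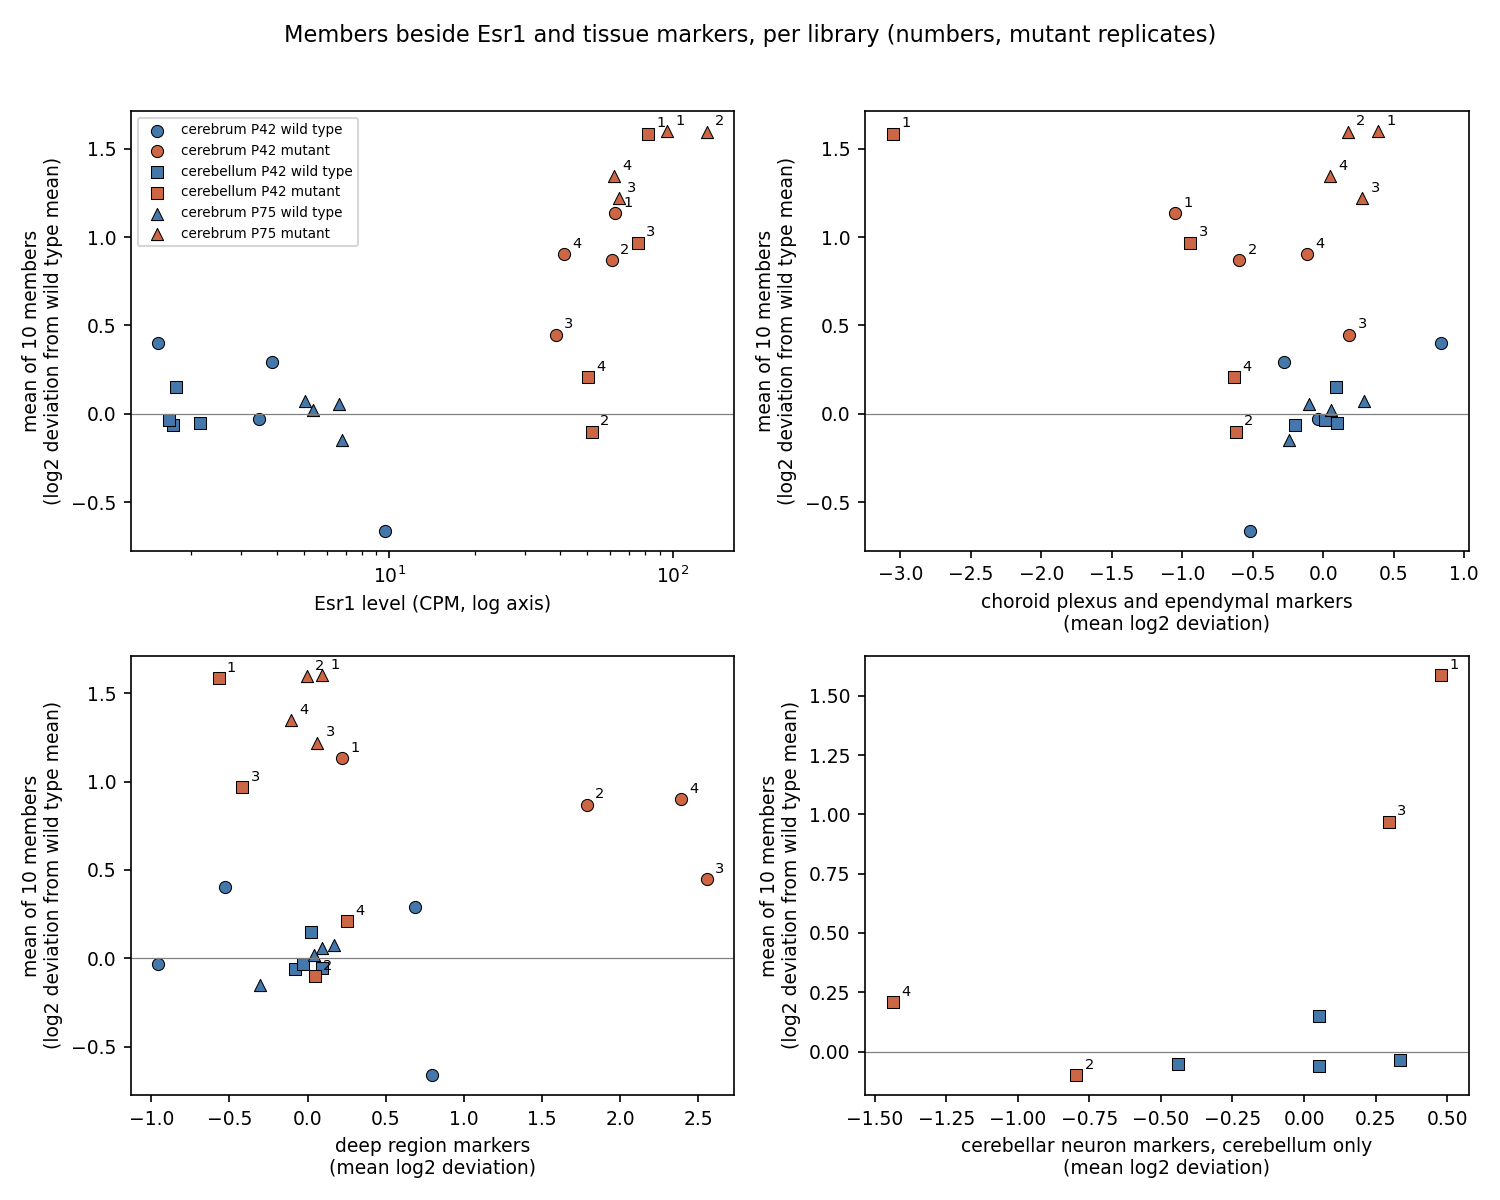
Mean log2 deviation of the 10 members (vertical axes) against Esr1 (CPM, log axis), choroid plexus and ependymal markers, deep region markers and, for cerebellum only, cerebellar neuron markers (mean log2 deviations, horizontal axes); 1 point per library, numbers give mutant replicates. Cerebellum mutants 1 and 3 (1.59 and 0.97) have more Esr1 and higher cerebellar neuron markers than mutants 2 and 4 (-0.10 and 0.21), and mutant 1 has a choroid plexus deviation of -3.05.

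In cerebrum at P75 all 10 members had a log2 fold change above 0, as for 50.5% of all genes, and all 10 were called higher by edgeR. Their median log2 fold change was 1.47 (range 0.55 to 2.64, all genes 0.0031), where 7.66% of 17523 genes were called higher and 14.3% were called in either direction. All 4 mutants lay above all 4 wild types for 9 members, as for 10.1% of all genes. DESeq2 called 9 members and 3051 genes in all, in either direction. The authors' deposited table calls 9 members and 3128 of 17572 genes. Ddit4 was the member missed in both (adjusted p = 0.0996 in that table). By smallest p, Stc2, Sesn2 and Ddit3 are the leading 3 genes of the authors' table among 17572.

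Trib3 rose from 0.694, 1.07, 0.956 and 1.12 CPM in wild types to 6.01, 7.57, 4.89 and 5.57 CPM in mutants, 6.24-fold (2.64 ± 0.24, adjusted p = 9.14e-06). Stc2 rose from 3.85, 3.80, 2.42 and 3.09 CPM to 19.8, 20.6, 16.3 and 19.3 CPM, 5.80-fold (2.54 ± 0.16, adjusted p = 1.09e-06). Both groups of each gene were tight and far apart, whereas Stc2 had overlapped at P42. Sesn2 rose from 17.0, 14.7, 17.7 and 17.5 CPM to 97.3, 81.6, 55.3 and 67.6 CPM, 4.50-fold (2.17 ± 0.15, adjusted p = 1.09e-06). Chac1 rose from 6.37, 6.34, 8.25 and 9.41 CPM to 35.3, 29.5, 25.4 and 30.8 CPM, 3.98-fold (1.99 ± 0.15, adjusted p = 1.74e-06). These 4 effectors had the highest fold changes of the 10.

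The transcription factors rose by different amounts at P75. Ddit3 rose from 23.6, 16.4, 23.7 and 20.7 CPM to 87.3, 66.2, 67.6 and 72.6 CPM (1.80 ± 0.12, adjusted p = 1.09e-06). Atf5 rose from 21.8, 17.3, 24.8 and 21.4 CPM to 59.4, 45.0, 37.5 and 48.0 CPM (1.15 ± 0.14, adjusted p = 8.41e-05). Atf4 had the smallest rise of the 10, from 132, 120.0, 144 and 134 CPM to 201, 192, 176 and 206 CPM (0.55 ± 0.075, adjusted p = 2.96e-04), though without overlap. Ppp1r15a rose from 11.4 ± 2.20 to 22.3 ± 3.21 CPM (0.96 ± 0.15, adjusted p = 8.76e-04) and Nupr1 from 4.83 ± 0.498 to 9.32 ± 2.18 CPM (0.95 ± 0.18, adjusted p = 0.00342). Ddit4 was the weakest call, from 54.1, 37.1, 46.9 and 34.4 CPM to 64.5, 97.5, 51.1 and 51.4 CPM (0.62 ± 0.19, adjusted p = 0.0424): mutant replicates 3 and 4 lay below wild type replicate 1, and the call was lost with DESeq2 (adjusted p = 0.122) and without mutant replicate 1 or 2 or wild type replicate 2, 3 or 4, with adjusted p between 0.0654 and 0.126. Without mutant replicate 2 its log2 fold change was 0.37.

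Every P75 mutant library took part, with mean deviations of 1.60, 1.60, 1.22 and 1.35 against 0.058, -0.15, 0.073 and 0.02 in wild types. Replicates 1 and 2 had 10 members above all wild types and replicates 3 and 4 had 9, where 31.1, 28.4, 26.5 and 24.4% of all genes were so placed. Replicates 1 and 2, the pair with the higher means, also had more interferon-stimulated transcript: 15 interferon-stimulated genes had mean deviations of 4.44, 4.22, 3.48 and 2.93 in the mutants, and 8 microglia markers 1.07, 1.08, 0.45 and 0.37. These 15 genes were all called higher at P75 (median log2 fold change 4.38), and 0 of 13 tested were called by edgeR or DESeq2, or had an unadjusted p under 0.05, in either tissue at P42. Other marker lists and the mitochondrial share also moved with genotype at P75. Of 11 cortical and hippocampal excitatory neuron markers 9 were called lower (median log2 fold change -0.36), with library deviations of -0.57, -0.37, -0.32 and -0.28 in mutants 1 to 4 and -0.095 to 0.15 in wild types. Of 8 microglia markers 5 were called higher (median 0.68), of 7 endothelial markers 3 were called higher (median 0.32), and of 8 astrocyte markers 1, Gfap, an intermediate filament gene of reactive astrocytes, rose from 219 ± 21.4 to 1212 ± 623 CPM (2.47 ± 0.28, adjusted p = 6.13e-05). Of 8 oligodendrocyte markers 7 were lower at P75 (median -0.17, against 0.58 in cerebrum at P42), with 0 called by edgeR and 2 by DESeq2. Mitochondrial genes gave 3.13, 3.85, 3.34 and 3.42% of counts in the mutants and 4.44 to 5.64% in the wild types, without overlap. The part of these lists and of this share in the P75 differences among members was not tested.

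**Figure D4:**
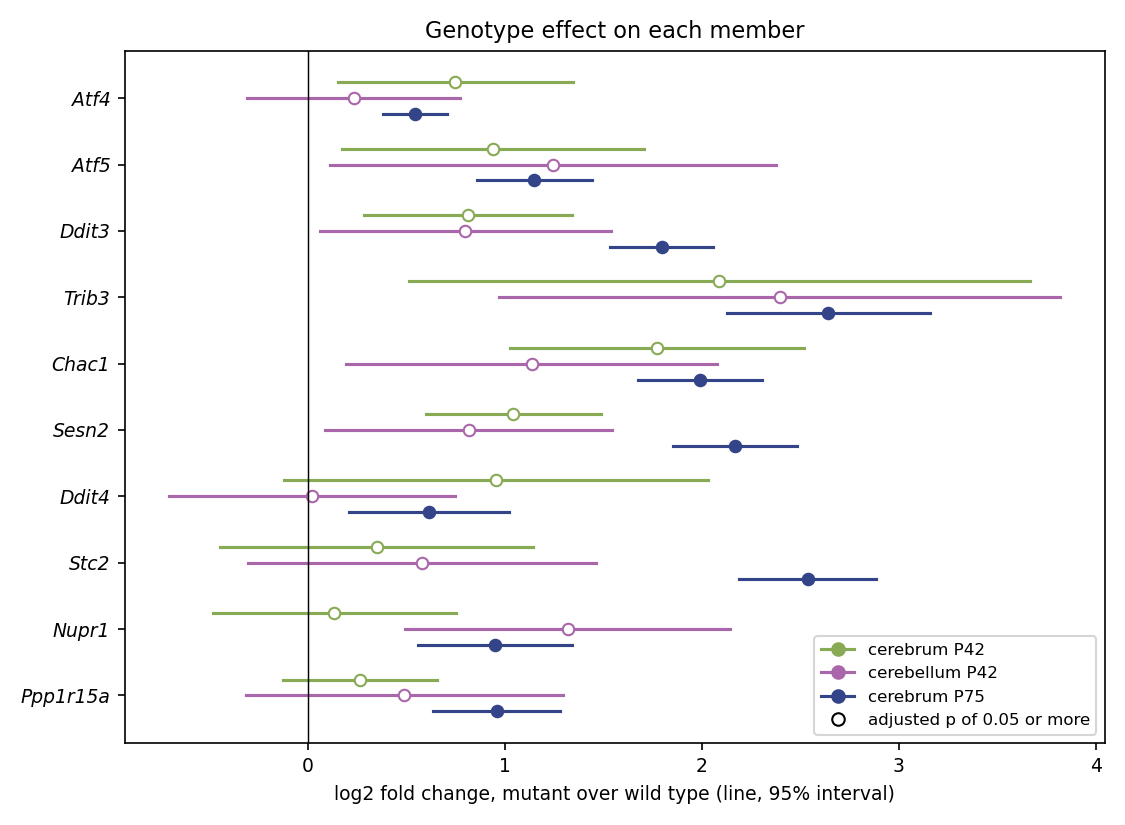
Log2 fold change of each effector, mutant over wild type, with its 95% interval, from edgeR's quasi-likelihood fit of each comparison (4 + 4 libraries); filled points have an adjusted p under 0.05. All 10 P75 points are filled and their intervals are narrow, and the P42 points, none filled, lie between 0.02 and 2.39 with wide intervals.

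The tissue and age differences were tested as interaction terms. Between tissues at P42, the genotype effect was larger in cerebellum for 6 members (50.1% of all genes) and in cerebrum for 4; 0 members and 0% of 19614 genes were called by edgeR, 0 members by DESeq2, and 1 member, Nupr1, had an unadjusted p under 0.05 (6.18% of all genes). The Nupr1 effect in cerebellum exceeded that in cerebrum by 1.16 ± 0.45 (95% interval 0.20 to 2.12, adjusted p = 0.732). For Chac1 the interval ran from -1.73 to 0.55, for Trib3 from -1.92 to 2.31 and for Atf4 from -1.22 to 0.40, so these data leave room for differences of over 1 log2 unit.

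Between ages in cerebrum, 2 members had a larger genotype effect at P75 than at P42, where 1.36% of 19273 genes were called (1.04% higher at P75). Stc2 differed by 2.19 ± 0.39 (95% interval 1.36 to 3.01, adjusted p = 0.00722) and Sesn2 by 1.13 ± 0.26 (95% interval 0.59 to 1.67, adjusted p = 0.0359). Ddit3 had 0.99 ± 0.27 (adjusted p = 0.0887, or 0.0264 with DESeq2). Chac1 and Atf5 had differences of 0.23 ± 0.36 (95% interval -0.53 to 1.001) and 0.23 ± 0.37 (95% interval -0.56 to 1.01). Atf4 and Ddit4 had differences below 0 (-0.20 ± 0.28 and -0.33 ± 0.54). The Sesn2 call was lost without the sex term (adjusted p = 0.0651) and without any of 11 single libraries, with adjusted p between 0.0546 and 0.104; it held without mutant replicate 3 or 4 at P75, mutant replicate 1 or 3 at P42, or wild type replicate 4 at P42. The Stc2 call held when any 1 of the 16 libraries was left out. Age here is also time since tamoxifen, and the tables of the 2 ages are separate, so each age was set against its own wild types only. Age also goes with sex, since all P75 libraries were male and the P42 libraries were of both sexes. Sex entered only as an additive term, so a genotype effect that differs by sex cannot be told apart from age. In P42 males only, the median log2 fold change of the members was 0.28.

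Among wild types, the order of the levels per length (reads per kilobase and per 1000000 reads, RPKM) was the same in both P42 tissues. In cerebrum the means were 36.1 for Atf4, 19.7 for Ddit4, 8.34 for Ddit3, 5.49 for Atf5, 4.24 for Sesn2, 3.63 for Ppp1r15a, 2.95 for Chac1, 1.54 for Nupr1, 0.888 for Stc2 and 0.235 for Trib3. Each gene from Atf4 to Nupr1 was within the sum of the SDs of its neighbour in this order, so those neighbours did not differ beyond their spread, while Stc2 lay below Nupr1, and Trib3 below Stc2, by more than that sum. In cerebellum they ran from 51.8 ± 4.02 RPKM for Atf4 and 36.4 ± 10.8 for Ddit4 down to 0.723 ± 0.0686 for Stc2 and 0.682 ± 0.135 for Trib3. Between wild type tissues 2 members were called, both higher in cerebellum, where 30.5% of 17964 genes were called (14.1% higher in cerebellum). These were Sesn2 (0.68 ± 0.16, adjusted p = 0.0083) and Ppp1r15a (0.77 ± 0.18, adjusted p = 0.00953), and both calls were lost without wild type cerebellum replicate 4, the 1 female of that group.

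The rest of the pathway was followed in lists of named genes. A count of genes that rose or fell in a list is the number called higher or lower by edgeR. At P42 an unadjusted p under 0.05 was reached by 12.6% of all genes in cerebrum and 4.65% in cerebellum. Upstream, 17 genes of the eIF2 kinases, eIF2, its exchange factor and its control had medians of 0.11, 0.15 and 0.11 in cerebrum P42, cerebellum P42 and cerebrum P75, with 0, 0 and 4 called by edgeR and by DESeq2, all higher, and 0 and 1 (higher) at an unadjusted p under 0.05 at P42. At P75 Eif2ak2, the interferon-induced kinase PKR, rose from 8.41 ± 0.975 to 38.3 ± 15.0 CPM (2.19 ± 0.23, adjusted p = 3.24e-05), and Eif2ak3, the endoplasmic reticulum kinase PERK, from 29.4 ± 2.68 to 38.4 ± 2.46 CPM (0.38 ± 0.09, adjusted p = 0.0113). Ppp1r15b, the constitutive partner of Ppp1r15a, rose by a smaller amount (0.27 ± 0.07, adjusted p = 0.0202). At the messenger level these kinases do not show their activity, which depends on phosphorylation.

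Of 9 partner transcription factors, 6 rose at P75 (medians 0.55, 0.08 and 0.62), and at P42 0 were called by edgeR or DESeq2, with 1 in cerebrum (Atf3, higher) and 2 in cerebellum (Atf3, higher, and Fos, lower) at an unadjusted p under 0.05. Atf3, a factor induced by ATF4, rose from 1.93 ± 1.24 to 11.9 ± 4.68 CPM at P75 (2.61 ± 0.36, adjusted p = 3.03e-04), Jun by 1.30 ± 0.11 and Cebpb by 1.31 ± 0.15. At P42 Atf3 had 1.35 ± 0.55 in cerebrum and 1.46 ± 0.55 in cerebellum (adjusted p = 0.383 and 0.967), and Fos, an immediate early gene, had -1.01 ± 0.36 in cerebellum (adjusted p = 0.967).

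Metabolic targets of ATF4 moved with the effectors at P75. Of 15 genes of amino acid and one-carbon synthesis 11 rose (medians 0.39, 0.40 and 0.49 in the 3 comparisons). Of 10 amino acid transporters 10 rose (medians 0.30, 0.42 and 0.70). At P42 edgeR called 0 in either list and DESeq2 1 of each in cerebrum. At an unadjusted p under 0.05, 8 and 6 were higher in cerebrum and 4 and 4 in cerebellum. That threshold was reached by 12.6% of all genes in cerebrum and 4.65% in cerebellum. Shmt2, a mitochondrial serine hydroxymethyltransferase, rose from 22.0 ± 2.19 to 63.9 ± 7.57 CPM (1.54 ± 0.10, adjusted p = 1.09e-06). Asns, asparagine synthetase, rose by 0.64 ± 0.077 and Slc7a3, a cationic amino acid transporter, by 1.38 ± 0.093. At P42 Mthfd2, a mitochondrial folate enzyme, had cerebral levels of 18.9 ± 3.52 CPM in mutants against 7.85 ± 1.26 CPM in wild types (1.27 ± 0.19, adjusted p = 0.133) and 0.69 ± 0.20 in cerebellum, with all mutants above all wild types in both tissues. Asns in cerebellum had 117 ± 16.9 CPM against 82.6 ± 5.73 CPM (0.55 ± 0.12, adjusted p = 0.699), again with no overlap, unlike Atf4 itself. Slc1a4, a neutral amino acid transporter, had 0.50 ± 0.11 there (adjusted p = 0.699, no overlap).

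Other targets were split. Of 12 secreted or other targets tested at P75, 7 rose (medians 0.09, 0.25 and 0.47), among them Bbc3, the pro-apoptotic PUMA gene, by 1.86 ± 0.14, and Eif4ebp1, a translation repressor, by 1.92 ± 0.18. Among 22 cytosolic aminoacyl-tRNA synthetase genes 12 rose and 1 fell at P75 (medians 0.13, 0.23 and 0.51), with Aars at 0.77 ± 0.067, Nars at 0.73 ± 0.066 and Yars at 0.75 ± 0.069. In cerebellum at P42 Nars had 0.46 ± 0.10 and Gars 0.43 ± 0.10 (adjusted p = 0.727 and 0.767), and 8 of the 22 had all mutants above all wild types, as for 1.85% of all genes. At P42 edgeR called 0 of the secreted and other targets and 0 of the synthetases, and DESeq2 called 1 of the former, in cerebrum. An unadjusted p under 0.05 was reached there by 3 and 6 of these lists, and in cerebellum by 3 and 9, all higher. The shares of all genes were 12.6% in cerebrum and 4.65% in cerebellum.

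Genes of neighbouring stress programs set the effectors in context. Of 23 chaperones and other targets of ATF6 or XBP1 in the endoplasmic reticulum, 5 had a log2 fold change above 0 at P75 and 18 below 0. By edgeR, 0 were called higher and 2 lower. Hspa5, the chaperone BiP, went from 335 ± 16.7 to 282 ± 8.71 CPM (-0.25 ± 0.065, adjusted p = 0.0203). Calr, calreticulin, changed by -0.25 ± 0.069 (adjusted p = 0.0263). The list medians were -0.12, -0.14 and -0.11. Of 7 mitochondrial chaperones and proteases, Hspa9 (0.55 ± 0.062) and Lonp1 (0.49 ± 0.077) rose at P75 and Hspd1 fell (-0.20 ± 0.062, adjusted p = 0.0447). Among 15 p53 targets 10 rose at P75 (median 0.75), with Cdkn1a, a cell cycle inhibitor gene, at 1.42 ± 0.15 and Tap1, a peptide transporter gene that interferon also induces, at 3.02 ± 0.27. Ddit4 also answers to glucocorticoids and hypoxia. Of 11 glucocorticoid-responsive genes 8 had a log2 fold change above 0 at P75 (median 0.13), and 2 were called higher, Mt1 and Nfkbia. Of 11 hypoxia-responsive genes 1 was called higher, Hk2, and 1 lower, Ldha (median -0.09). At P42 edgeR called 0 genes of any of these lists in either tissue. DESeq2 called 3 p53 targets, 1 glucocorticoid-responsive gene and 1 hypoxia-responsive gene in cerebrum and 0 in cerebellum. At an unadjusted p under 0.05, reached by 12.6% of all genes in cerebrum and 4.65% in cerebellum, 2 and 3 of the endoplasmic reticulum genes were lower in the 2 tissues, and 0 and 2 of the mitochondrial genes higher. Of the p53 targets 4 were higher in cerebrum, and 6 higher and 1 lower in cerebellum. Of the glucocorticoid-responsive genes 2 were higher in cerebrum, and 1 higher and 1 lower in cerebellum. Of the hypoxia-responsive genes 1 was higher and 2 lower in cerebrum, and 2 were lower in cerebellum.

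Across the 16 P42 libraries, the members differed in how closely each followed the mean deviation of the other 9. Pearson's r was 0.94 for Atf5, 0.93 for Ddit3, 0.93 for Sesn2, 0.92 for Chac1, 0.86 for Atf4, 0.84 for Trib3 and 0.81 for Ppp1r15a, but 0.64 for Stc2, 0.63 for Nupr1 and 0.56 for Ddit4. These are descriptions over libraries that share tissue makeup and genotype. Of 16288 genes outside the members with at least 1 CPM, 7 of the 8 whose deviations were most like the members' mean were Atf3 (r = 0.92), Eif4ebp1 (0.92), Wipi2 (0.92), Shmt2 (0.91), Slc3a2 (0.91), Yars (0.90) and Ptcd1 (0.90). Of these, 5 belong to the pathway lists above and rose at P75, where 7.66% of all genes tested were called higher. All lists beside the members hold 258 symbols, and they were chosen with earlier results of these data known. Wipi2, an autophagy gene, and Ptcd1, a mitochondrial RNA-binding protein gene, had P75 log2 fold changes of 0.10 ± 0.07 and 0.12 ± 0.09 and were not called (adjusted p = 0.385 and 0.437).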

How the data were processed

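PolyA-enriched RNA was sequenced from 24 libraries, 4 per group. Per the submitters' processing notes, HISAT2, DESeq2 and the mouse build mm10 were used; their versions, the read counter, its strand setting and the annotation were not given in the sources used here. The authors deposited raw counts per gene in 2 tables (P42 and P75), with gene coordinates and lengths, and no columns were left unmapped. The authors' deposited comparison tables hold, per the file headers, the mean signal (baseMean), the log2 fold change, the Wald statistic as a score, and p-values; they are quoted only where named. Members and gene lists were chosen with earlier results of these data known.

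Counts were tested in R 4.3.3 with edgeR 4.0.16 (filterByExpr, TMM, quasi-likelihood F test, two-sided), sex as a covariate where both sexes were present, and Benjamini-Hochberg adjustment over all genes kept; a gene was called at an adjusted p under 0.05. Tissue and age differences were interaction terms over 16 libraries each. CPM are scaled by TMM within each comparison's 8 libraries, so P42 and P75 levels come from separate scalings; RPKM divides by the deposited length. Deviations use a pseudocount of 0.5 CPM. Totals of 13.8 to 23.2 (units of 1000000 counts) set the precision, and counts without molecular identifiers are not independent molecules. The text names all members, up to 3 genes of smallest p per list and comparison, and the 8 genes most like the members, 1 of which is not reported here. Of 258 other list symbols 258 were found. Fits were tested on simulated data. Alternatives were DESeq2 1.42.0, relative log expression and library-size scaling, no filter, a filter of 1 CPM in 4 libraries, no sex term, males only, marker covariates, the replicate number as a block, and leaving out libraries; the excitatory and cerebellar neuron covariates were chosen after seeing the data.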

Additional observations from a re-analysis of the deposited data

Results flagged for a closer look

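Atf5 in mutant cerebrum at P42 had 1 library apart from the others: replicate 1 had 23.4 CPM and the other 3 had 16.9 to 17.7 CPM, so that the gap was 0.881 of the group's range. Of 60 groups of 4 libraries examined over the 10 members this was the only one so marked, and chance marks about 1 in 20. The genotype effect of Sesn2 in cerebrum was larger at P75 than at P42 by a log2 difference of 1.13 ± 0.26 (adjusted p = 0.0359, edgeR interaction term), and that of Stc2 by 2.19 ± 0.39 (adjusted p = 0.00722). For Sesn2 all 4 mutants were above all wild types at both ages, and for Stc2 at P75 only. The P75 libraries were all male and the P42 libraries of both sexes.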

How the results depend on the processing

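The number of members called at P42 depended on the method: in cerebrum it was 0, but 2 with DESeq2 and 7 with no filter, and in cerebellum 0, but 1 with DESeq2, 6 with no filter and 4 with the cerebellar neuron markers as a covariate. The cause of the rise without a filter was not tested. At P75 the count was 10, 9 with DESeq2 and 9 to 10 without single libraries. The members whose effect differed between ages numbered 2, 1 without the sex term and 1 to 4 without single libraries, and those that differed between wild type tissues 2, 5 with no filter and 0 to 3 without single libraries. The median log2 fold change in cerebrum P42 (0.88) ran from 0.56 to 1.08 without single libraries and was 0.28 in males only and 1.31 with the deep region covariate; in cerebellum P42 (0.81) it ran from 0.21 to 1.04 and was -0.33 with the choroid plexus covariate, and in cerebrum P75 from 1.37 to 1.54.

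With the choroid plexus covariate, cerebellar log2 fold changes turned to -0.43 for Atf4, -0.63 for Atf5, -0.043 for Ddit3, -0.11 for Chac1, -0.23 for Sesn2, -0.78 for Ddit4, -0.53 for Stc2 and -0.75 for Ppp1r15a. Without single libraries, values that changed sign ran in cerebellum P42 from -0.10 to 0.45 for Atf4, -0.45 to 0.29 for Ddit4, -0.024 to 0.89 for Stc2 and -0.23 to 0.78 for Ppp1r15a, and in cerebrum P42 from -0.021 to 0.63 for Stc2 and -0.021 to 0.31 for Nupr1. The difference between tissues changed sign for Ddit3 with library size only (-0.055), no filter (-0.0098) and no sex term (-0.022), and without single libraries ran from -0.27 to 0.20 for Ddit3, -0.11 to 0.83 for Atf5, -0.79 to 0.54 for Trib3, -0.29 to 0.46 for Stc2, -0.22 to 0.51 for Ppp1r15a and -0.58 to 0.020 for Sesn2. The difference between ages ran from -0.043 to 0.52 for Chac1, -0.60 to 1.01 for Trib3, -0.38 to 0.065 for Atf4 and -0.83 to 0.11 for Ddit4, and the wild type tissue difference from -0.0036 to 1.07 for Atf5.

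The labels do not say whether replicate numbers pair the libraries. The correlation of same-numbered deviations ran from 0.01 to 0.28 in cerebrum P42, from -0.40 to 0.08 in cerebellum P42 and from 0.04 to 0.19 in cerebrum P75. In cerebrum P75 every mutant correlated best with the wild type of its own number. In cerebrum P42 replicates 2 and 3 did so, and in cerebellum P42 none did. With the replicate number as a block, 0, 0 and 10 members were called in the 3 comparisons, 0 between tissues and 2 between ages. The block turned the cerebellar log2 fold change of Ddit4 to -0.076 and the tissue difference of Atf5 to -0.20, of Ddit3 to -0.34 and of Trib3 to -0.59. Over members, refits numbered 190 in cerebrum P42 (3 changed sign), 180 in cerebellum P42 (15) and 140 in cerebrum P75 (0 changed sign, 6 lost a call, all of Ddit4). At these depths Trib3, with 2 to 49 counts in cerebrum P42, was the least precisely measured.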
